A study of Mus musculus with 8 samples.

Results

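Lyve1, Timd4, Folr2, Mrc1, Fcna, Cbr2, Ltc4s and Vsig4, genes used to recognise resident macrophages of the heart, were followed across organs, cell populations, reporter status and marrow donors. They were chosen by symbol from the gene list, 8 of the 32285 gene identifiers in the matrix, and all 8 had counts. CD45+CD11b+ myeloid cells were sorted from the heart and blood of Mx1Cre:c-Mybfl/fl recipient mice. Stroke recipients had received bone marrow from donors with stroke, and control recipients had received bone marrow from control donors. Each group held 2 mice, and the sources used here give no age, time after transplantation or agent that induced Cre. Heart and blood cells of a mouse carried different hashtag antibodies and were pooled into a single 10x Genomics 3′ library, so the hashtag gave the organ and the library gave the donor.

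Resident macrophages of the heart are seeded early in life and persist largely by local division, whereas other cardiac macrophages arise from circulating monocytes. Mx1-driven Cre is induced by interferon signalling, and loss of c-Myb depletes blood-forming stem cells but spares macrophages laid down before birth, so a recipient heart can hold host macrophages beside cells of the donor marrow. Lyve1 is a hyaluronan receptor. Timd4 is a receptor for phosphatidylserine on dying cells. Folr2 binds folate, Mrc1 is the mannose receptor and Fcna is a lectin of the complement system. Vsig4 is a receptor for complement C3 fragments on tissue macrophages. Cbr2 is a carbonyl reductase and Ltc4s makes leukotriene C4.

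On GRCm38, the assembly of the files, Lyve1 lies at chr7:110850607-110863239 (minus strand), Folr2 at chr7:101839988-101857194 (minus), Timd4 at chr11:46810800-46844332 (plus), Cbr2 at chr11:120729489-120732114 (minus), Ltc4s at chr11:50236461-50238616 (minus), Mrc1 at chr2:14229392-14332057 (plus), Fcna at chr2:25624666-25628030 (minus) and Vsig4 at chrX:96247203-96293438 (minus). Annotated genes overlap Folr2 (Gm10602 and Gm45319), Mrc1 (Mir511), Fcna (Fcnaos) and Ltc4s (Gm26542). Mir511 lies on the strand of Mrc1 and the others on the opposite strand of their partner, and the sources used here do not state how counting treated overlapping genes. Promoters were found in RefSeq (GRCm38.p6) for 7 of the 8 genes, with a pair for Folr2, each 300 bases. The PU.1 core GAGGAA was present on either strand in promoters of 5 of these 7 genes (5 of their 8 promoters) and in 28.3% of all 32851 promoters. The MAF half-site TGCTGA was present in promoters of 5 of the 7 genes (6 of the 8 promoters) and in 19.5% of all promoters. PU.1 and MAF are transcription factors of macrophages. The E-box CACGTG was in none of the 7 and in 7.15% of all. These matches are descriptions of letters and not evidence of binding. The 4 promoters below are those of the genes that take the 2 different patterns described further on: Fcna, Cbr2 and Timd4 were highest in one heart macrophage cluster, and Vsig4 in another. Capitals mark both motifs, in either orientation.
Fcna (chr2:25627925-25628224, minus strand): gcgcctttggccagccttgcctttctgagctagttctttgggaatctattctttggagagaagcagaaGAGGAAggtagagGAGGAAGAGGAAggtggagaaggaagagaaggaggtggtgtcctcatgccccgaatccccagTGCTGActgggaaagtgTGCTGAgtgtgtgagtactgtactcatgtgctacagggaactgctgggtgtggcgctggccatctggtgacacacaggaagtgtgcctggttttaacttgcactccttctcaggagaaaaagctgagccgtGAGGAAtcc
Cbr2 (chr11:120731972-120732271, minus strand): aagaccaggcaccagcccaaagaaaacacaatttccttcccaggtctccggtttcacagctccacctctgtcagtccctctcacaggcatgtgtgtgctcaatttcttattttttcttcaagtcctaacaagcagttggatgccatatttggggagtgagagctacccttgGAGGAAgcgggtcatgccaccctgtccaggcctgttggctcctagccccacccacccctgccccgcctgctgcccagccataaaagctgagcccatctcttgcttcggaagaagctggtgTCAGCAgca
Timd4 (chr11:46810549-46810848, plus strand): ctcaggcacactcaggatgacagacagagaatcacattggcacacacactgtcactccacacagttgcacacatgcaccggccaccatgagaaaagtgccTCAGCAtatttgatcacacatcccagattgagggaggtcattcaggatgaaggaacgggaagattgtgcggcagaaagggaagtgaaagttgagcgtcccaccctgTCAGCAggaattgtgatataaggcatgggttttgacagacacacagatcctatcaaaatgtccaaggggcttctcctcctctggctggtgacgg
Vsig4 (chrX:96293389-96293688, minus strand): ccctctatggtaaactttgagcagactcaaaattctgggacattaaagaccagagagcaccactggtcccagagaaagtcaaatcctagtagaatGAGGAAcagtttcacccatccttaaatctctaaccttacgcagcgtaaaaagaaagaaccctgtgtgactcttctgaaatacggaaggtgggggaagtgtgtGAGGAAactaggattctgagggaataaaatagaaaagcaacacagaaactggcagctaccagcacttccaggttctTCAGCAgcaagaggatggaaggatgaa
Fcna held 4 PU.1 cores and 2 MAF half-sites, Cbr2 held 1 of each, Timd4 held 2 MAF half-sites and no PU.1 core, and Vsig4 held 2 PU.1 cores and 1 MAF half-site. Mrc1 held 3 PU.1 cores, Ltc4s held 1, and each Folr2 promoter held 1 MAF half-site.

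The libraries held 3303 and 3084 barcodes with 15771782 and 16482961 gene UMIs in stroke recipients, and 2020 and 2723 barcodes with 10059365 and 12509034 UMIs in control recipients. Pairs of libraries shared 1 to 5 barcode sequences. After filters, 9654 barcodes remained, 4903 of heart and 4751 of blood. Control recipient 1 stood apart. The Y-linked gene Ddx3y was at 60.4 CPM there and at 0.077 to 0.221 CPM in the other 3 libraries, and it had 1 UMI of the X-linked Xist. It also carried UMIs of a second reporter transcript (6421, none in the other 3). Values of the donor comparisons without it are given below. Donor comparisons rest on matching the barcode suffix to the sample number, which no file states. Macrophage-like heart barcodes numbered 727 and 588 in stroke recipients and 201 and 591 in control recipients. All 10 macrophage markers were detected in all 4 mice, with a summed level of 30628 to 42402 CPM (counts scaled to the same total of UMIs in each sum). Macrophage-like heart barcodes held between 89.0% (Mrc1) and 94.4% (Vsig4) of each gene's heart UMIs.

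All 8 genes were higher in the heart than in blood. The values in this paragraph are CPM of summed UMIs over all barcodes of a mouse's organ. Lyve1 was at 384.1, 421.4, 198.1 and 343.4 CPM in the hearts of stroke recipients 1 and 2 and control recipients 1 and 2, and at 0.892, 0.802, 0.452 and 1.27 CPM in their blood. The organs did not overlap, and the log2 fold change, heart over blood, was 8.63 ± 0.21 (SE; edgeR quasi-likelihood test with mouse as block, adjusted p = 0.00022). Fold changes of the other 7 ran between 5.30 (Mrc1) and 8.58 (Timd4), and all 8 passed an adjusted p of 0.05. Higher in heart by that test were 9.93% of 12067 genes tested, and 15.2% were called in either direction. Blood counts were small, from 3 UMIs (Timd4) to 464 (Mrc1) over the 4 mice. The Mrc1 UMIs of blood sat mostly in dendritic cell-like barcodes (292 of 464), at 82.2 to 480.1 CPM. The median fold change of the 8 was 7.11, beside -0.05 over all genes tested. Of 16 genes listed as companions of resident macrophages, such as Cd163 and Maf, 12 were called higher and none lower. The fold change reads how many macrophages an organ's sort held together with the level in each cell, and these cannot be told apart in summed counts: 1 macrophage-like barcode was found in blood.

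**Figure D1:**
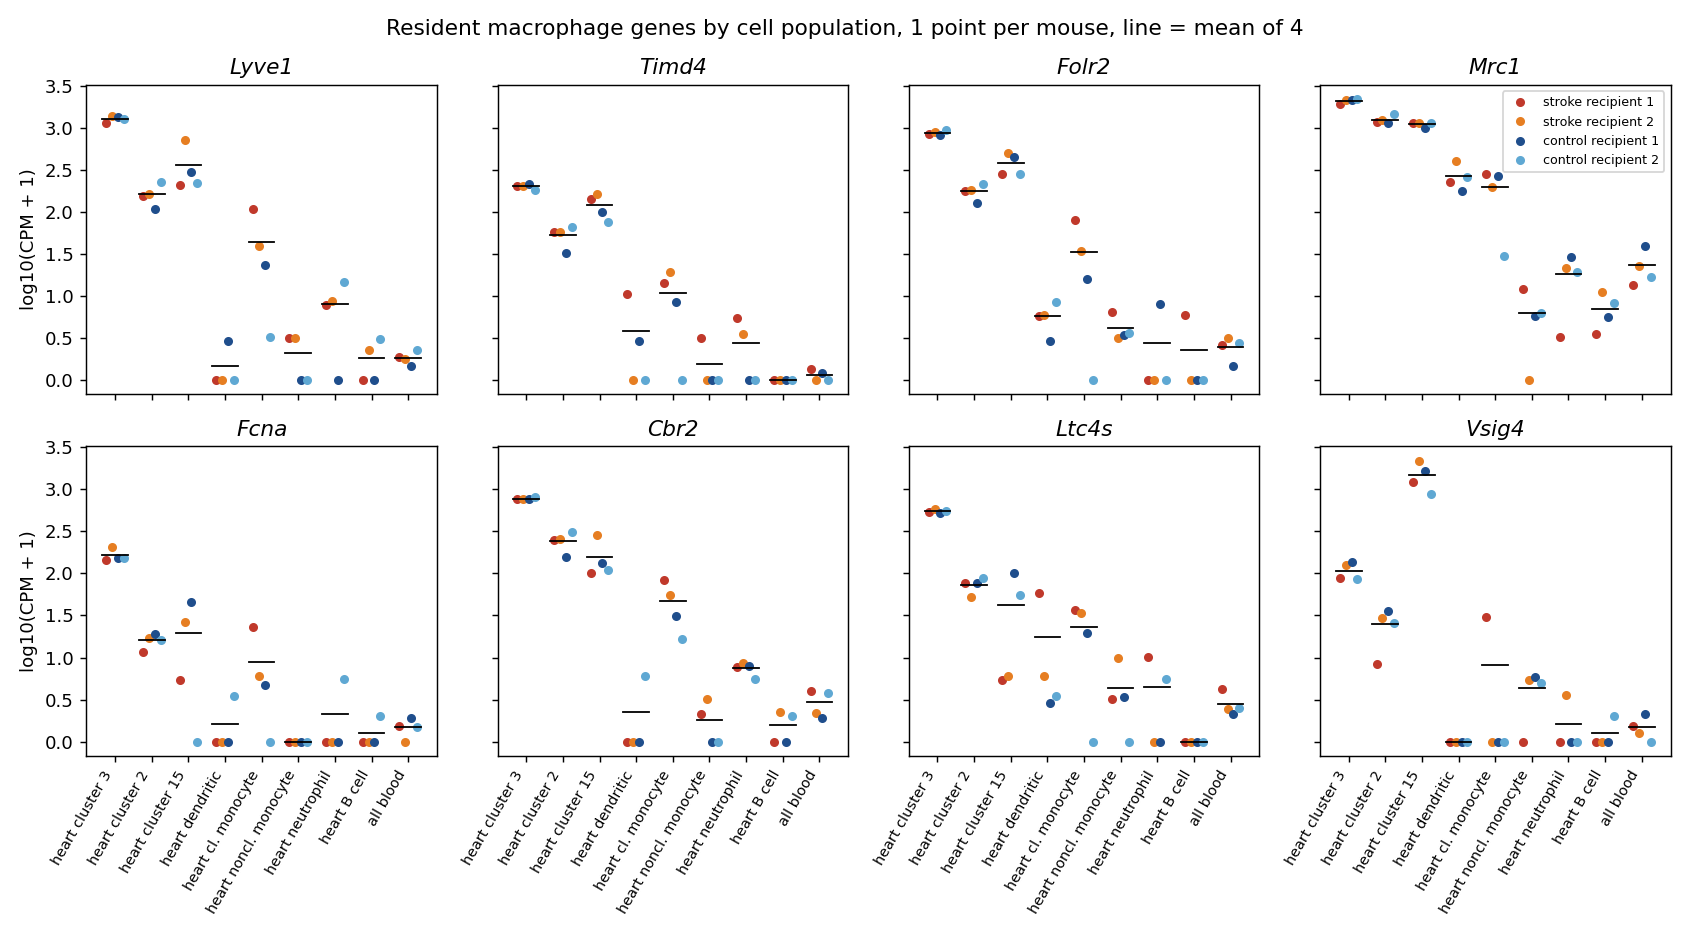
Level of each gene by cell population as log10(CPM + 1), with 1 point per mouse and the mean of the 4 mice as a line. Clusters 3, 2 and 15 are the macrophage-like clusters of the heart. The other populations sit below cluster 3. For Fcna, Ltc4s and Vsig4 some of their points overlap those of cluster 2 or cluster 15. Only Vsig4 has its highest points in cluster 15.

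Most macrophage-like barcodes of the heart had Mrc1, and fewer had the other genes. After thinning each barcode to 2000 UMIs, the shares with a UMI were 84.8% for Mrc1, 49.1% for Folr2, 48.8% for Cbr2, 44.6% for Lyve1, 29.7% for Ltc4s, 20.1% for Timd4, 11.1% for Fcna and 9.59% for Vsig4 (1887 barcodes, with 220 shallower ones left out, median 4681 UMIs before thinning). Without thinning they were 92.5%, 60.2%, 61.9%, 51.9%, 41.6%, 34.9%, 19.7% and 14.95% in the same order. In heart B cell-like barcodes, a population that should lack these genes, the thinned shares were between 0% and 0.99% (505 barcodes, median 5350 UMIs before thinning). Mrc1 averaged 1644.1 ± 120.8 CPM in macrophage-like barcodes, against 264.6 ± 95.6 CPM in heart dendritic cell-like and 194.7 ± 117.2 CPM in heart classical monocyte-like barcodes (SD, n = 4 mice). The other 7 genes averaged 0 to 16.8 CPM in dendritic cell-like barcodes, where Ltc4s had 15 UMIs. The classical monocyte-like class of the heart varied between mice: its Mrc1 level was 285.1 and 194.8 CPM in stroke recipients and 269.7 and 29.2 CPM in control recipients.

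Macrophage-like barcodes of the heart fell into 3 clusters that were built without the 8 genes. Cluster 3 (990 barcodes) and cluster 2 (1000) were of like size in every mouse, and cluster 15 held 117. Cluster 2 was led by Ms4a7 and the chemokine gene Ccl12, and cluster 15 by Cxcl13, Cd207 and Vsig4. Cluster 3 was led by Ltc4s, Lyve1 and Folr2, and its 10 genes with the highest fold included F13a1, which stands in both the companion list and the classical monocyte marker list, and no macrophage marker. Since clusters are defined by their cells' genes, values between clusters are described here without a test. Lyve1 was at 1144.3 and 1398.7 CPM in cluster 3 of stroke recipients and 1350.8 and 1264.0 CPM in control recipients, against 154.6 and 161.2 CPM in cluster 2 of stroke recipients and 108.1 and 227.1 CPM in control recipients. All values of cluster 3 were above all values of cluster 2, and the ratio of means was 7.92. The same ratio was 10.9 for Fcna, 7.51 for Ltc4s, 5.01 for Folr2, 4.50 for Vsig4, 3.81 for Timd4, 3.23 for Cbr2 and 1.69 for Mrc1. Vsig4 took another order: in cluster 15 it was at 1236.8 and 2170.4 CPM in stroke recipients and 1662.9 and 872.0 CPM in control recipients, 13.8 times the mean of cluster 3. Of its heart UMIs, 57.9% came from cluster 15 and 30.6% from cluster 3. For the other 7, cluster 3 held 54.8% (Mrc1) to 82.9% (Fcna). In cluster 15, Ltc4s was at 4.39 and 5.06 CPM in stroke recipients and 99.8 and 54.9 CPM in control recipients, all below cluster 3. Each stroke value was 1 UMI, and the control values were 9 and 8 UMIs of 1 barcode each, so the donors cannot be compared there.

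Of the 16 companion genes, 15 averaged higher in cluster 3 than in cluster 2. Mertk did not, at 254.6 CPM in cluster 3 and 265.7 CPM in cluster 2, and Hpgd was close, at 680.7 CPM in cluster 3 and 665.5 CPM in cluster 2, with both highest in cluster 15. Cd163 (a haemoglobin scavenger receptor) averaged 756.6 ± 144.1 CPM in cluster 3 and 301.2 ± 82.3 CPM in cluster 2, and Ccl24 (an eotaxin) 390.4 ± 38.3 CPM in cluster 3 and 69.9 ± 25.8 CPM in cluster 2 (SD, n = 4). The antigen presentation genes took the other direction: H2-Aa averaged 975.9 ± 213.2 CPM in cluster 3 and 5059.4 ± 364.2 CPM in cluster 2, and Cd74 3193.0 ± 686.1 CPM in cluster 3 and 14691.3 ± 872.8 CPM in cluster 2. Over 11 sums of cluster and mouse, which share libraries and depth, the gene closest to the mean of the 8 was Ptk2 (Pearson r = 0.99), followed by Colec12 (0.98), Egfr (0.97), Ccl24 (0.97), Ccl9, Snx6, Ccl6, Mfsd6, Mpp1 and Grn, among 6104 genes ranked. The 5 most opposed were Zmynd15 (-0.99), Ptprc (-0.97), H2-Eb1 (-0.97), Slamf7 (-0.97) and Cd74 (-0.96). Against the mean of the other 7, r was 0.98 for Lyve1, 0.97 for Folr2, 0.91 for Mrc1, 0.85 for both Timd4 and Cbr2, 0.73 for Fcna, 0.45 for Ltc4s and -0.11 for Vsig4.

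**Figure D2:**
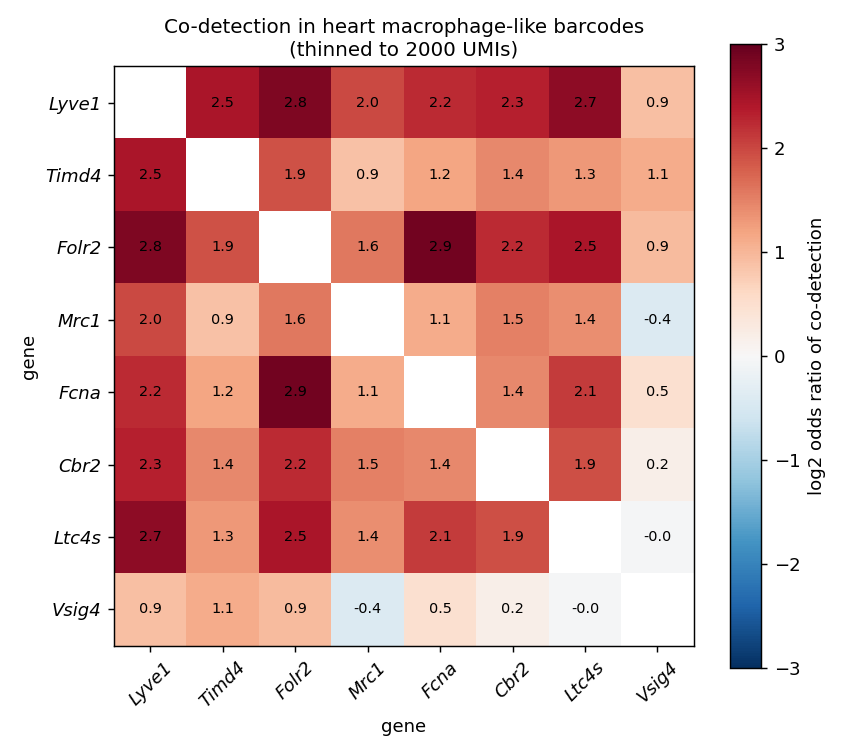
Log2 odds ratio of finding UMIs of both genes in 1 barcode, over 1887 heart macrophage-like barcodes thinned to 2000 UMIs. The 21 pairs without Vsig4 are all above 0, and the 7 pairs with Vsig4 run from slightly below 0 to about 1, where they overlap the lowest of the others.

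The genes shared barcodes. Of Lyve1-positive barcodes, 74.1% also had a Folr2 UMI, against 29.1% of Lyve1-negative ones. Of Folr2-positive barcodes, 19.4% had Fcna, against 3.13% of the rest, an odds ratio of 7.47. For the 21 pairs without Vsig4 the odds ratios ran between 1.83 (Timd4 with Mrc1) and 7.47, with a median of 3.81, and all 21 were on the positive side in all 4 mice. For the 7 pairs with Vsig4 they ran between 0.75 (Mrc1) and 2.16 (Timd4), and 3 of the 7 were positive in all 4 mice. These 3 pairs, with Timd4, Folr2 (1.92) and Lyve1 (1.87), lay above the lowest pair without Vsig4.

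With marrow from stroke donors, none of the 8 genes passed the adjusted threshold in the heart. Summed over all heart barcodes, each was higher in both stroke recipients than in both control recipients. Timd4 was at 78.1 and 70.6 CPM in stroke recipients and 36.3 and 57.0 CPM in control recipients. Lyve1 was at 384.1 and 421.4 CPM in stroke recipients and 198.1 and 343.4 CPM in control recipients. The groups did not overlap for any of the 8, and both stroke recipients were above both control recipients in 19.6% of 12476 genes tested. The groups did not overlap in 40.9%. Log2 fold changes, stroke over control, ran between 0.39 (Mrc1) and 0.72 (Vsig4), with a median of 0.57 beside -0.01 over all genes. The edgeR test called 0 of 8 (adjusted p from 0.561 to 0.659), 3 had an unadjusted p under 0.05, and DESeq2 called 0. Over all genes edgeR called 3 (0.024% of those tested), Hbb-bs, Hba-a2 and Hba-a1, globins of red cells, and 0 once barcodes led by haemoglobin UMIs were left out. Macrophage-like barcodes made up 47.2% and 45.5% of the heart in stroke recipients and 29.8% and 42.3% in control recipients. The part of this share in the difference was not tested. Without control recipient 1 the fold changes ran between 0.12 and 0.98, with a median of 0.25. Without control recipient 2 the median was 1.01. Each of these fits left 1 control mouse. With no filter on low counts, more than the 12476 genes were tested and 7 of the 8 were called. The count over all genes also rose, as given further on, and the fold changes of the 8 ran between 0.41 and 0.74.

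**Figure D3:**
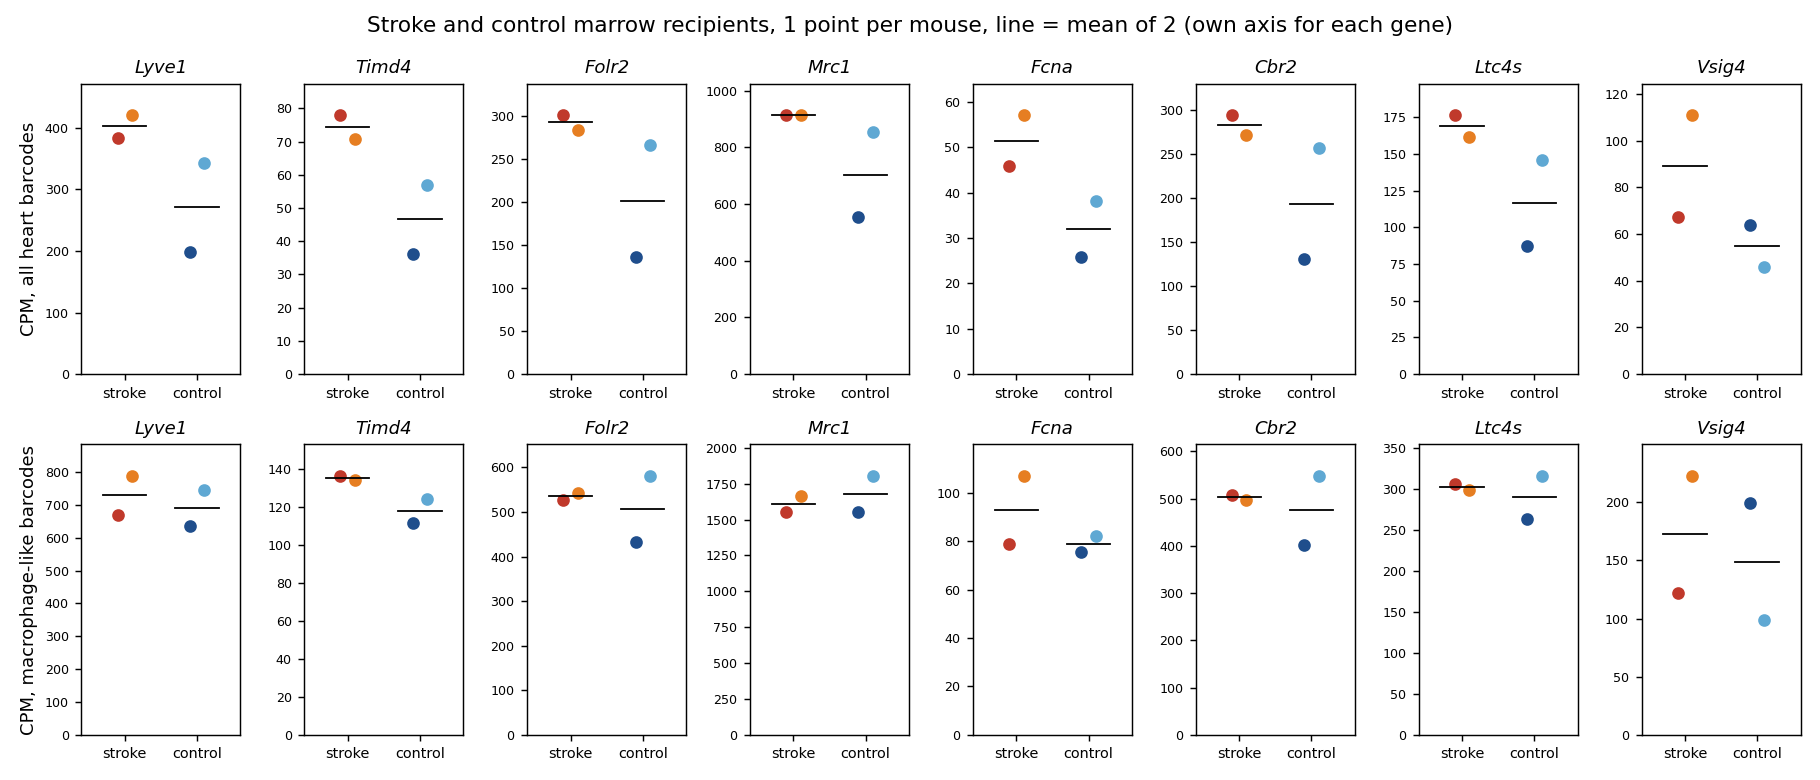
CPM of each gene over all heart barcodes (upper row) and over macrophage-like heart barcodes (lower row), 1 point per mouse with the mean of 2 as a line, stroke left and control right. The groups are apart in the upper row, and in the lower row they overlap for 7 of the 8 genes.

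Within macrophage-like heart barcodes the distance was smaller. Lyve1 was at 669.5 and 789.0 CPM in stroke recipients and 634.0 and 745.0 CPM in control recipients. Vsig4 was at 122.0 and 223.0 CPM in stroke recipients and 199.0 and 98.5 CPM in control recipients. The groups overlapped for 7 of the 8 genes. Timd4 was the exception, at 136.4 and 134.2 CPM in stroke recipients and 111.7 and 124.3 CPM in control recipients, and both stroke recipients were above both control recipients in 14.7% of 10436 genes, and the groups did not overlap in 30.9%. The log2 fold changes ran between -0.05 ± 0.14 (Mrc1) and 0.27 ± 0.32 (Vsig4; SE), with a median of 0.08 and 7 of 8 positive. Without control recipient 1 the median was -0.04 and 3 of 8 were positive. For Lyve1 the 95% interval was -0.21 to 0.38, from a normal approximation that is too narrow for 2 mice per group. The edgeR test called 0 of 8 genes (all adjusted p = 1) and 0% of the 10436 tested, with 0 of 8 at an unadjusted p under 0.05 and 369 of all genes. DESeq2 called 0 of 8 and 3 of all genes. The companion list (15 tested) and the monocyte-derived and antigen presentation list (11 tested) had 0 calls each, with 1 and 2 genes at an unadjusted p under 0.05.

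Compared by cluster number, cluster 2 and cluster 3 each gave 0 of 8 calls by edgeR and by DESeq2, with 0 of 8 at an unadjusted p under 0.05 in each. Called in all were 0.0112% of 8914 genes in cluster 2 (Tnip3, lower) and 0.0334% of 8988 in cluster 3 (S100a9, higher, and Gm10076 and Il31ra, lower). Cluster 15 had 15 barcodes in control recipient 1 and was not tested. The log2 fold changes of the 8 ran between -0.71 (Vsig4) and 0.13 (Timd4) in cluster 2, and between -0.09 (Mrc1) and 0.21 (Fcna) in cluster 3. These limits rested on single mice. In cluster 2 the lowest value was -1.94 without stroke recipient 2, the highest was 0.88 without control recipient 2, and 0 of 8 were positive without control recipient 1. In cluster 3 the highest was 0.46 without stroke recipient 1 and 0.32 without control recipient 1, and the lowest was -0.23 without stroke recipient 2 and -0.34 without control recipient 2. Each of these fits left 1 mouse in a donor group. Vsig4 in macrophage-like barcodes was at a log2 fold change of 0.81 without control recipient 1 and -0.23 without stroke recipient 2. Cbr2 in cluster 2 was at 0.71 without control recipient 2, and its lowest value with 1 mouse left out was -0.29.

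The number of these genes found together overlapped between donors. After thinning to 2000 UMIs, 3 or more of the 8 were detected in 369 of 659 macrophage-like barcodes of stroke recipient 1 (56.0%, 95% exact binomial interval 52.1% to 59.8%) and in 284 of 512 of stroke recipient 2 (55.5%, 51.0% to 59.8%). They were detected in 96 of 183 of control recipient 1 (52.5%, 44.96% to 59.9%) and in 306 of 533 of control recipient 2 (57.4%, 53.1% to 61.7%). The means were 55.7% ± 0.4 in stroke recipients and 54.9% ± 3.5 in control recipients (SD, n = 2 each), with overlapping groups (exact two-sided permutation test, p = 1; the smallest p for 2 against 2 is 0.333). The intervals cover counting error only.

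**Figure D4:**
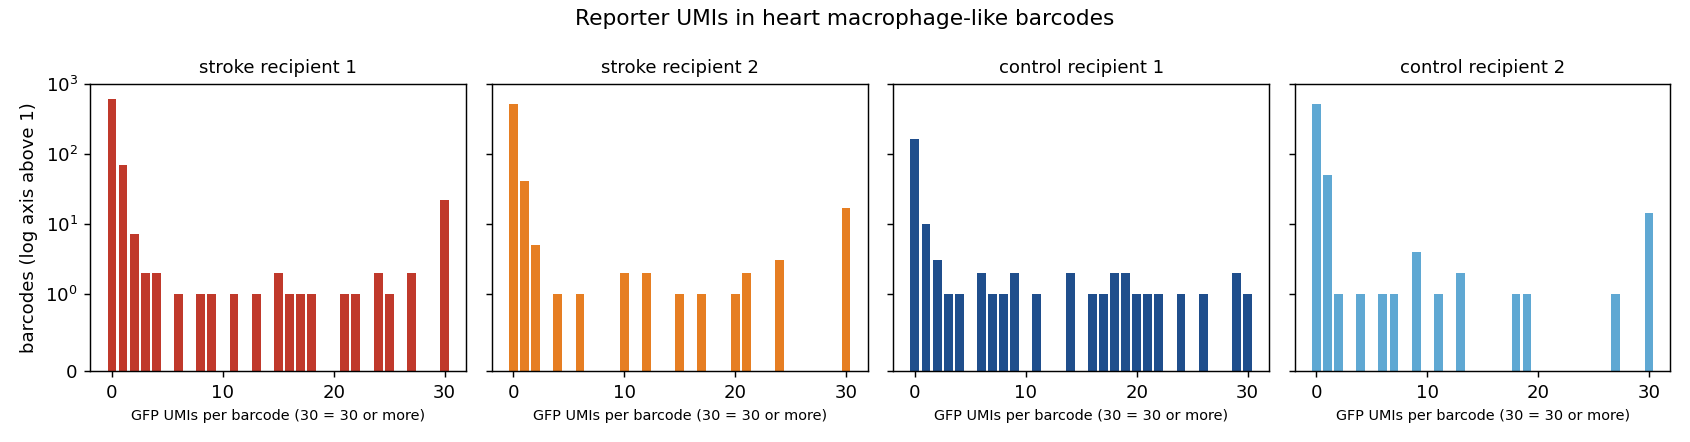
Heart macrophage-like barcodes by the number of reporter UMIs, 1 panel per mouse, with 30 standing for 30 or more and a log vertical axis above 1. Most barcodes are at 0, a shoulder is at 1, and a separate thin tail runs to 30 or more.

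The matrix lists transcripts of green fluorescent protein, and their carriers are not stated in the labels. Reporter UMIs were found in most neutrophil-like and monocyte-like barcodes of the heart: 88.3% to 99.4% of neutrophil-like barcodes had 1 or more. In macrophage-like heart barcodes the share was 16.2% and 13.1% in stroke recipients and 18.9% and 13.2% in control recipients. Many of these had a single UMI, 68 and 41 in stroke recipients and 10 and 50 in control recipients. With 5 or more UMIs the shares were 5.36% and 5.10% in stroke recipients and 11.4% and 4.40% in control recipients. That limit did not act alike in all mice. It kept 99.4% and 97.9% of heart neutrophil-like barcodes in stroke recipients, and 65.0% and 94.6% in control recipients 1 and 2. In heart B cell-like barcodes, 29.0% and 9.27% had 1 or more reporter UMIs in stroke recipients and 5.88% and 10.3% in control recipients, a range that overlapped that of macrophage-like barcodes. With 5 or more, the B cell-like shares were 11.3% and 1.99% in stroke recipients and 0.735% and 2.29% in control recipients. Barcodes with 5 or more were a larger share of cluster 2 (6.97% to 18.8% by mouse) than of cluster 3 (1.52% to 3.53%).

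GFP-positive macrophage-like barcodes, with 1 or more UMIs, had a lower mean CPM of all 8 genes than GFP-free ones, and edgeR called 7 of them. Folr2 was at 330.7 and 411.3 CPM in GFP-positive barcodes of stroke recipients and 172.4 and 458.5 CPM in those of control recipients, against 577.1 and 571.3 CPM in GFP-free barcodes of stroke recipients and 547.6 and 604.9 CPM in those of control recipients. Every GFP-positive value was below every GFP-free value, and the log2 fold change was -0.78 ± 0.13 (SE; edgeR with mouse as block, adjusted p = 0.00045). The fold change was -1.33 ± 0.20 for Vsig4 (edgeR adjusted p = 0.000145), -0.73 for Timd4, -0.60 for Ltc4s, -0.58 for Lyve1, -0.46 for Cbr2 and -0.36 for Mrc1, all called. Fcna, at -0.56 ± 0.19, did not pass (edgeR adjusted p = 0.123). Lower by the test were 1.27% of 7584 genes, 2.99% were higher, and 4.26% were called in either direction. Lower in all 4 mice were 10.0%. DESeq2 called 4 of the 8 and lost Folr2 (adjusted p = 0.093), Lyve1 (0.469) and Cbr2 (0.0847). The edgeR fit without the mouse block also called 4 and lost Lyve1, Mrc1 and Cbr2. Leaving out 1 mouse at a time gave 5 to 7. Those of Mrc1 and Cbr2 were lost without stroke recipient 1, and those of Lyve1, Mrc1 and Cbr2 without stroke recipient 2, where Fcna was called (log2 fold change -1.02). The direction depended on the scale: counted as UMIs per barcode, Mrc1 averaged 9.47 in GFP-positive and 8.28 in GFP-free barcodes and was lower in 0 of 4 mice, and Cbr2 averaged 2.62 in GFP-positive and 2.50 in GFP-free barcodes and was lower in 1. Lyve1 was lower per barcode in 2 mice, Folr2, Fcna, Ltc4s and Vsig4 in 3, and Timd4 in 4. Median depths were 5764, 5427, 8191.5 and 5135.5 UMIs in GFP-positive barcodes of stroke recipients 1 and 2 and control recipients 1 and 2.

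The distance grew when GFP-positive meant 5 or more UMIs, a limit chosen after the data were seen. All 8 genes were again lower, with log2 fold changes between -0.74 ± 0.09 (Mrc1) and -2.35 ± 0.25 (Vsig4) and a median of -1.40. Each was called (edgeR, largest adjusted p = 0.000107) and lower in all 4 mice. Lower by the test were 4.8% of 6755 genes, 7.22% were higher and 12.0% were called in either direction. Lower in all 4 mice were 16.2%. Folr2 averaged 183.4 ± 35.8 CPM in these barcodes and 575.2 ± 23.5 CPM in GFP-free barcodes (SD, n = 4). Vsig4 averaged 37.2 ± 35.6 CPM and was at 0 in control recipient 2, against 189.2 ± 80.8 CPM in GFP-free barcodes. Barcodes with a single GFP UMI had Folr2 at 580.9 ± 94.8 CPM and Mrc1 at 1946.8 ± 356.3 CPM, and GFP-free barcodes had Mrc1 at 1724.2 ± 93.6 CPM. Vsig4 went the other way, at 78.1 ± 63.2 CPM with a single GFP UMI, and was below the GFP-free level in 3 of 4 mice. Barcodes with 5 or more GFP UMIs were deeper, with medians of 9714, 7242.5, 10910 and 5761 UMIs, against 4683, 4417, 4915 and 4384 in GFP-free barcodes of stroke recipients 1 and 2 and control recipients 1 and 2. Counted as UMIs per barcode, Mrc1 was lower in 1 of 4 mice, Lyve1 and Ltc4s in 3, and the other 5 in all 4. Barcodes of 3000 or more UMIs, for 1 or more GFP UMIs, gave a median log2 fold change of -0.60.

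**Figure D5:**
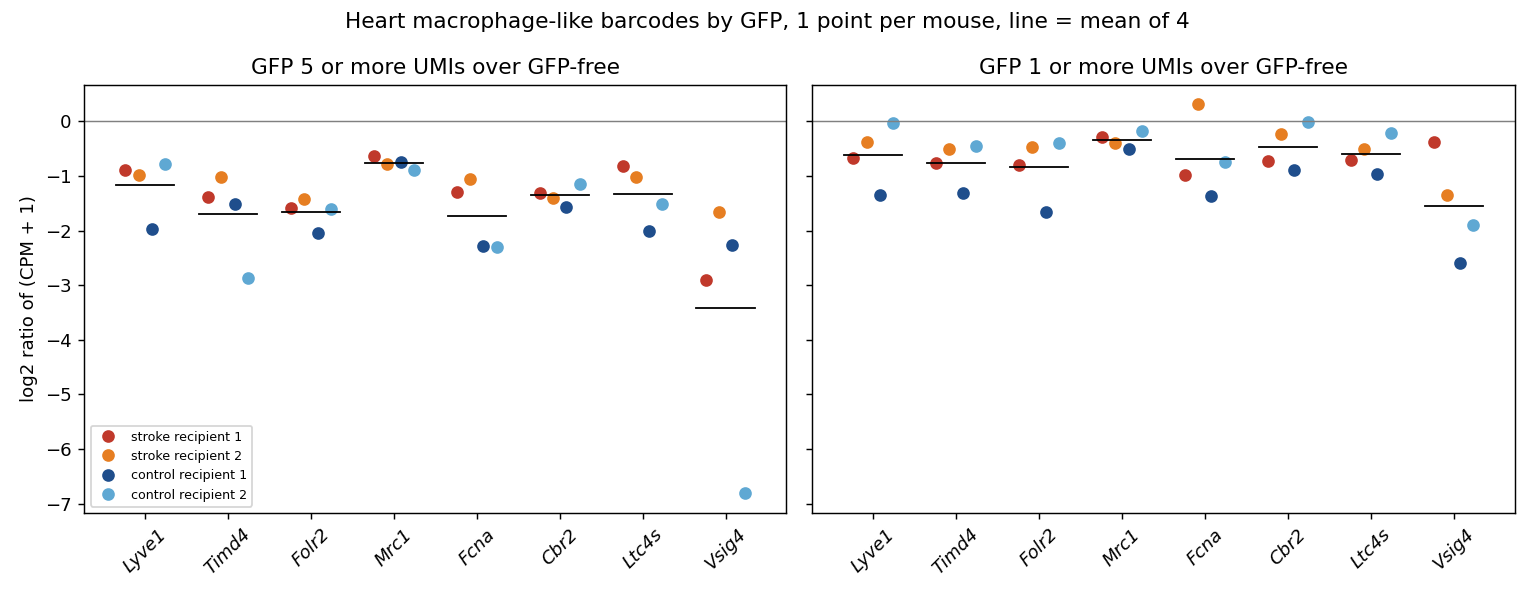
Log2 ratio of (CPM + 1) in GFP-positive over GFP-free heart macrophage-like barcodes, with 1 point per mouse and the mean of 4 as a line, for 5 or more (left) and 1 or more (right) UMIs. All points on the left are below 0, and the lowest is Vsig4 of control recipient 2, where no UMI was found.

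With 1 or more UMIs, 10 of 14 companion genes tested were called lower and none higher. The 4 not called were Mertk (-0.41), Stab1 (-0.31), Clec10a (-0.24) and Cd209f (0.46), the 1 companion with a positive value. Among those called were Pf4 (a platelet-type chemokine, -0.66 ± 0.11) and Cd163 (-0.56 ± 0.10). Of 9 monocyte-derived and antigen presentation genes tested, all were called higher, from Cd74 (0.31 ± 0.09) and H2-Aa (0.345 ± 0.09) to Ccr2, a chemokine receptor of monocytes (2.07 ± 0.22), and Plac8 (5.70 ± 0.27). The genes with the smallest p were Plac8, Ear2 and Napsa among those higher, and Cxcl13, Klf2 and Vsig4 among those lower. The 8 nonclassical monocyte markers summed to 1261.2, 1316.4, 928.0 and 697.8 CPM in barcodes with 5 or more GFP UMIs and to 331.0, 375.6, 362.3 and 335.9 CPM in GFP-free ones. The 8 neutrophil markers summed to 677.8, 606.9, 84.0 and 45.02 CPM in barcodes with 5 or more, and to 63.3, 75.5, 121.2 and 73.2 CPM in GFP-free ones. The sum of the 8 classical monocyte markers was lower in all 4 mice, at 2427.8, 2448.3, 2952.1 and 2071.0 CPM with 5 or more GFP UMIs. In GFP-free barcodes they summed to 2922.3, 3129.1, 3225.2 and 2989.5 CPM. This sum is not a reading of each marker. It includes F13a1, also a companion gene, which averaged 1241.9 CPM in cluster 2 and 4644.5 CPM in cluster 3. Ccr2 and Plac8 of the same list, called higher with 1 or more GFP UMIs, averaged 165.2 and 76.1 CPM in cluster 2. The 8 dendritic cell markers summed to 135.0, 155.8, 580.9 and 382.7 CPM with 5 or more, and to 94.2, 118.1, 128.4 and 132.4 CPM in GFP-free barcodes. The part of these markers in the result was not tested. Within cluster 2 alone, Timd4, Folr2, Mrc1 and Cbr2 were lower in barcodes with 5 or more GFP UMIs in all 4 mice (ratios of means of 0.522, 0.471, 0.608 and 0.448), Vsig4 in 3, and Lyve1, Fcna and Ltc4s in 2, in groups of 19 to 29 barcodes and 13 to 689 UMIs. Within cluster 3, which held most UMIs of 7 of the 8 genes, barcodes with 1 or more GFP UMIs were close to GFP-free ones for several genes: the ratio of means was 0.995 for Cbr2 (lower in 2 mice), 0.960 for Fcna (3), 0.958 for Mrc1 (3) and 0.926 for Lyve1 (2). It was 0.872 for Ltc4s (3), 0.835 for Timd4 (4), 0.820 for Folr2 (4) and 0.694 for Vsig4 (3). These groups held 9 to 40 barcodes. With 5 or more GFP UMIs, in groups of 3 to 10 barcodes, the ratios in cluster 3 ran between 0.197 (Vsig4, 7 UMIs) and 0.821 (Mrc1). At that limit Lyve1 was lower in 3 mice and the other 7 genes in all 4.

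The reporter difference of the 8 genes was not shown to depend on the donor. In the interaction fit, edgeR called 0 of 8 genes (0.0964% of 8298 genes called in all), 1 had an unadjusted p under 0.05, and DESeq2 called 0 of 8. Vsig4 had the largest value, a log2 difference of 1.46 ± 0.36 (stroke minus control; edgeR adjusted p = 0.284). In GFP-positive barcodes Vsig4 was at 98.6 and 97.3 CPM in stroke recipients and 43.8 and 29.4 CPM in control recipients, and in GFP-free barcodes it was at 128.0 and 249.4 CPM in stroke recipients and 267.8 and 111.5 CPM in control recipients. The other 7 ran between -0.12 (Cbr2) and 0.72 (Fcna). The median of the 8 was 0.09 with 5 positive, and its sign changed with the setting. It was -0.23 with 2 positive without control recipient 1, and 0.73 with 8 positive without control recipient 2. With organ from the hashtag ratio it was -0.14 with 3 positive. From 2 GFP UMIs it was 0.52 with 8 positive, and from 5 it was 0.46 with 7 positive. In the same fit 1 of 15 companion genes was called, Cd209f (3.36 ± 0.51; edgeR adjusted p = 0.00199), and 1 of 11 monocyte-derived and antigen presentation genes, Fn1 (-4.81 ± 0.64; edgeR adjusted p = 0.000383), which encodes fibronectin. Leaving out 1 mouse left a donor group with 1 mouse. The value of Vsig4 then ran between 0.94 and 1.92, that of Folr2 between -0.25 and 1.01 and that of Lyve1 between -0.50 and 0.82. Vsig4 was called with hashtag doublets alone removed (1.57), with no low-count filter (1.48) and in barcodes of 3000 or more UMIs (1.44). The counts over all genes under these settings are given further on. With 5 or more GFP UMIs, Vsig4 was at 0.54 ± 0.59.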

How the data were processed

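The authors deposited raw UMI counts for genes and hashtags in each barcode, made with Cell Ranger 7.1.0 on mm10 per the submitters' processing notes. Everything that follows was computed here. The members and lists were chosen with earlier results of these data known. Hashtags were called with HTODemux (Seurat 5.3.0, 0.99 quantile), and barcodes with both hashtags (954) or neither (101) were removed, as were barcodes under 200 genes or over 10% mitochondrial UMIs. Scrublet (scanpy 1.11.5) calls, 231 in all, were removed too; it marked 9 and 3 barcodes in the stroke libraries (thresholds 0.523 and 0.514) and 39 and 180 in the control libraries (0.255 and 0.148), so doublet removal was uneven between donors, and a shared threshold of 0.25 was tried. Leiden clusters (leidenalg 0.10.2, resolution 1, 30 components) used 2000 variable genes without the members and the reporters. Classes were named from marker lists. UMIs were summed per mouse and population, and CPM scales each sum to the same total. Tests were edgeR 4.0.16 quasi-likelihood with TMM, a low-count filter and Benjamini-Hochberg adjustment over all genes tested, checked on simulated data. DESeq2 1.42.0 was an alternative. GFP-positive means 1 or more UMIs of both reporter transcripts added together. In macrophage-like heart barcodes of control recipient 1, 321 reporter UMIs were of the second transcript and 109 of the first. Mouse was the block where both groups came from the same mice. Genes were named as the members, list genes, the genes most and least like them, and the called genes with the smallest p. Nothing states separate experiments beyond the replicate number, so p-values measure the spread between mice. For barcodes with 0 UMIs, the limit is 3 counts. Some haemoglobin-rich barcodes were left out in an alternative (20% or more of UMIs). Cluster 3 had none of the fixed macrophage markers among its top 10 genes, so clusters were also compared by number.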

Additional observations from a re-analysis of the deposited data

Results flagged for a closer look

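Mrc1 in all heart barcodes was flagged as 1 mouse far from the others: control recipient 1 was at 552.7 CPM, and the other 3 mice were between 854.3 and 915.0 CPM. It was 1 of 40 groups of 4 mice examined, and chance flags about 1 in 20 such groups. The same mouse had the lowest share of macrophage-like barcodes in the heart, 29.8%.

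The 8 genes had counts in a heart cluster of 150 barcodes that carried both macrophage and neutrophil markers and was left unnamed (cluster 13). Their summed level was 2076.0 CPM there and 28.9 CPM in blood. The median depth of the cluster was 8938 UMIs per barcode. It held 69 and 59 barcodes in stroke recipients and 21 and 1 in control recipients. The doublet caller's threshold differed between libraries, and its part in this split was not tested.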

How the results depend on the processing

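All 8 genes stayed called higher in heart than in blood under every alternative run, and no called gene changed direction. With 1 mouse left out, 350 to 4838 genes were called between heart and blood. For stroke against control over all heart barcodes, 7 of the 8 genes were called with no low-count filter and 0 to 5 with 1 mouse left out, most without control recipient 2. The count over all genes was 0 without haemoglobin-led barcodes, 54 by DESeq2, 664 with no filter, and 4 to 142 with 1 mouse left out. In macrophage-like barcodes it was 1 with organ from the hashtag ratio, 3 at Leiden resolution 2, 2 in GFP-free barcodes, 3 by DESeq2, 62 with no filter and 3 to 152 with 1 mouse left out (0 to 1 of the 8). In cluster 2 it was 50 with no filter and 23 to 198 with 1 mouse left out (0 to 1 of the 8), and in cluster 3 it was 1 by DESeq2, 42 with no filter and 4 to 89 with 1 mouse left out.

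GFP-positive against GFP-free barcodes gave 1367 genes with organ from the hashtag ratio, 833 with hashtag doublets alone removed, 694 with a shared Scrublet threshold, 780 from 2 GFP UMIs, 812 from 5, 525 with no filter and 195 to 296 with 1 mouse left out (5 to 7 of the 8). DESeq2 gave 150 genes and 4 of the 8, and the fit with no replicate block 154 genes and 4 of the 8. For the interaction the counts were 31, 15 and 5 under the first 3 of these settings, 13 from 5 GFP UMIs, 16 from 3000 UMIs per barcode, 1 by DESeq2, 18 with no filter, 1 with no replicate block and 9 to 86 with 1 mouse left out (0 to 3 of the 8). Vsig4 was the 1 gene of the 8 called with hashtag doublets alone removed, from 3000 UMIs and with no filter. The share with 3 or more genes differed by 0.80 percentage points, by -2.69 with organ from the hashtag ratio, and by -1.68 to 3.27 with 1 mouse left out, the lowest without control recipient 1. The cause of these changes was not tested.

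Deviations of same-numbered stroke and control mice correlated at -0.35 over all heart barcodes and -0.03 in macrophage-like ones, over 2 pairs, so the numbers were not taken as pairs. With the replicate block, 4 genes were called over all heart barcodes, 3 in macrophage-like ones, 2 in cluster 2 and 1 in cluster 3, with 0 of the 8 in each. A crossed replicate block, chosen after seeing the data, gave 27 genes and 0 of the 8 over all heart barcodes. Settings chosen after seeing the data were 5 GFP UMIs, GFP-free barcodes, the clusters by number and the removal of unnamed or haemoglobin-led barcodes. With 2 mice per group and few Fcna, Timd4 and Vsig4 UMIs, small differences were not detectable.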
